A study of Solanum lycopersicum with 6 samples.

Results

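Abscisic acid is a plant hormone of drought response, seed dormancy and the restraint of buds, and 8 tomato genes of its synthesis, breakdown and response were followed in axillary buds, which sit in the angle between leaf and stem and can grow into side branches. The 8 genes were chosen by locus identifier. They are the synthesis genes NCED1 (Solyc07g056570) and NCED2 (Solyc08g016720), the breakdown genes CYP707A1 (Solyc04g078900) and CYP707A2 (Solyc08g005610), the protein phosphatase PP2C-2 (Solyc03g096670), the transcription factor AREB1 (Solyc04g078840), and the response proteins TAS14 (Solyc02g084850) and ASR1 (Solyc04g071610). The table holds 25440 loci in all, and the 8 lie on 5 chromosomes, 3 of them on chromosome 4. RNA was extracted from buds of 2 cultivars grown in a greenhouse, compound raceme and monomaker, with 3 libraries of each. The titles of the monomaker libraries call them WT. No allele, treatment, age or stage is given in the labels, and whether each library came from its own plant is not said, which leaves the p-values to measure only library-to-library spread, possibly of technical origin. The comparison asks where gene expression in the buds of one cultivar departs from that of the other.

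The hormone is made from carotenoids. Zeaxanthin epoxidase (ZEP) makes the epoxycarotenoids, NCED enzymes cleave them in the step that usually limits the rate, and an aldehyde oxidase, which needs a molybdenum cofactor finished by the FLACCA protein, makes the hormone itself, while CYP707A enzymes hydroxylate it for breakdown. Receptors of the PYL family that hold the hormone block PP2C phosphatases, which frees SnRK2 kinases to activate AREB and ABF factors, and these bind the promoters of response genes such as dehydrins. In Arabidopsis buds the hormone is known to restrain outgrowth, downstream of the TCP factor BRC1.

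Values are FPKM (fragments normalized to the length of the transcript and to the size of the library), so levels can be compared between genes. No read counts were used, and the depth of each library is unknown. The FPKM total of a compound raceme library was between 674654 and 687303 and that of a monomaker library between 717108 and 750250. Differences were tested with limma on log2(FPKM + 1) over the 18802 loci whose mean reached 1 FPKM, a scale that understates the change of low genes, and adjusted p-values are over all of these loci. Every fold change is given on that scale as compound raceme minus monomaker, and a gene is said to have risen or fallen only at an adjusted p below 0.05. Of the loci tested, 3.27% passed, with 141 loci (0.750%) higher and 473 (2.52%) lower in compound raceme, and with quantile normalization 222 were higher and 451 lower. The 5 markers of buds and meristems were listed above 0 in every library, with LS at most at 1.23 FPKM and BL down to 0.15 FPKM. They summed to between 61.8 and 82.5 FPKM in compound raceme buds and between 21.6 and 60.4 FPKM in monomaker.

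Some markers of other cells and tissues differed between the cultivars. The cell cycle list summed to between 16.2 and 33.9 FPKM in compound raceme buds and between 130.4 and 225 FPKM in monomaker, and 4 of its 4 genes fell. The 4 floral organ genes summed to between 52.0 and 82.4 FPKM in compound raceme buds and between 41.9 and 51.0 FPKM in monomaker. TM5 and TPI fell, at values of at most 5.18 FPKM, and TM5 was listed at 0 in compound raceme 1 and 2. Most of the floral sum came from TM6. It had 49.5, 80.1 and 66.0 FPKM in compound raceme buds and 31.1, 41.0 and 36.2 FPKM in monomaker. TM6 thus went the other way, without passing (limma adjusted p = 0.0842), and TAG1 had a log2 fold change of 0.06. The trichome gene TPS5 had between 35.6 and 69.9 FPKM in compound raceme buds and between 16.3 and 23.9 FPKM in monomaker, and it rose. The photosynthesis genes RBCS1 and CAB12, of which neither passed, summed to 685, 269.9 and 761 FPKM in compound raceme libraries 1 to 3 and to 734, 3746 and 5357 FPKM in monomaker libraries 1 to 3. Most of the sum of the bud and meristem list came from BRC1B, which restrains buds and had 53.9, 55.7 and 43.4 FPKM in compound raceme buds and 32.2, 27.2 and 11.5 FPKM in monomaker, without passing the test (limma adjusted p = 0.113). None of the 4 tested genes of that list passed, and the values of BRC1A, LS, BL and Tkn2 overlapped between the cultivars. The part of these differences in the values of AREB1 and the other genes was not tested.

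AREB1, a bZIP factor of the hormone's response, was the member that rose in compound raceme buds. It had 18.5, 20.2 and 16.6 FPKM in compound raceme libraries 1 to 3, against 8.69, 10.7 and 6.33 FPKM in monomaker libraries 1 to 3. Every compound raceme library lay above every monomaker library. The log2 fold change was 1.05 (SE 0.20, 95% interval 0.57 to 1.52, limma adjusted p = 0.0454), and the mean level was 2.15 times as high. Of all tested loci, 0.750% were called higher. The locus lies on chromosome 4 at 63586695 to 63591769 of SL3.0, on the minus strand. In bulk buds a difference in the share of cells that express a gene and a difference in RNA per cell cannot be told apart.

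AREB1 is the only member with 2 rows in the deposited table, which were summed here, and both rows were higher in compound raceme. The row without coordinates had 9.45 ± 1.34 FPKM in compound raceme buds and 3.80 ± 0.56 FPKM in monomaker (SD, n = 3 each), a log2 fold change of 1.12 in limma with an adjusted p of 0.0303. The row with coordinates had 9.02 ± 2.09 FPKM in compound raceme buds and 4.78 ± 1.66 FPKM in monomaker, a log2 fold change of 0.81 with an adjusted p of 0.138 in limma. Both rows therefore lay in the same direction, and the one without coordinates passed the test by itself. In the authors' deposited table the first row has a log2 ratio of 1.25 with a q-value of 3.03e-06 and the second a log2 ratio of 0.84 with a q-value of 0.079.

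The call of AREB1 was close to the threshold. Its limma adjusted p was 0.0421 without monomaker 1, a fit that called 3.92% of loci higher and 10.9% in either direction. It was 0.081, 0.191 and 0.143 without compound raceme 1, 2 and 3 and 0.085 and 0.0931 without monomaker 2 and 3. The fits without compound raceme 1, 2 and 3 called 3.21%, 0.0319% and 0.0374% of all tested loci in either direction. Those without monomaker 2 and 3 called 0.0426% and 0.0799%. The log2 fold change of AREB1 stayed between 0.87 and 1.2 in these 6 fits. Since the cultivars do not overlap, leaving out a library could not change the direction, and the call was kept in 1 of the 6 fits.

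**Figure D1:**
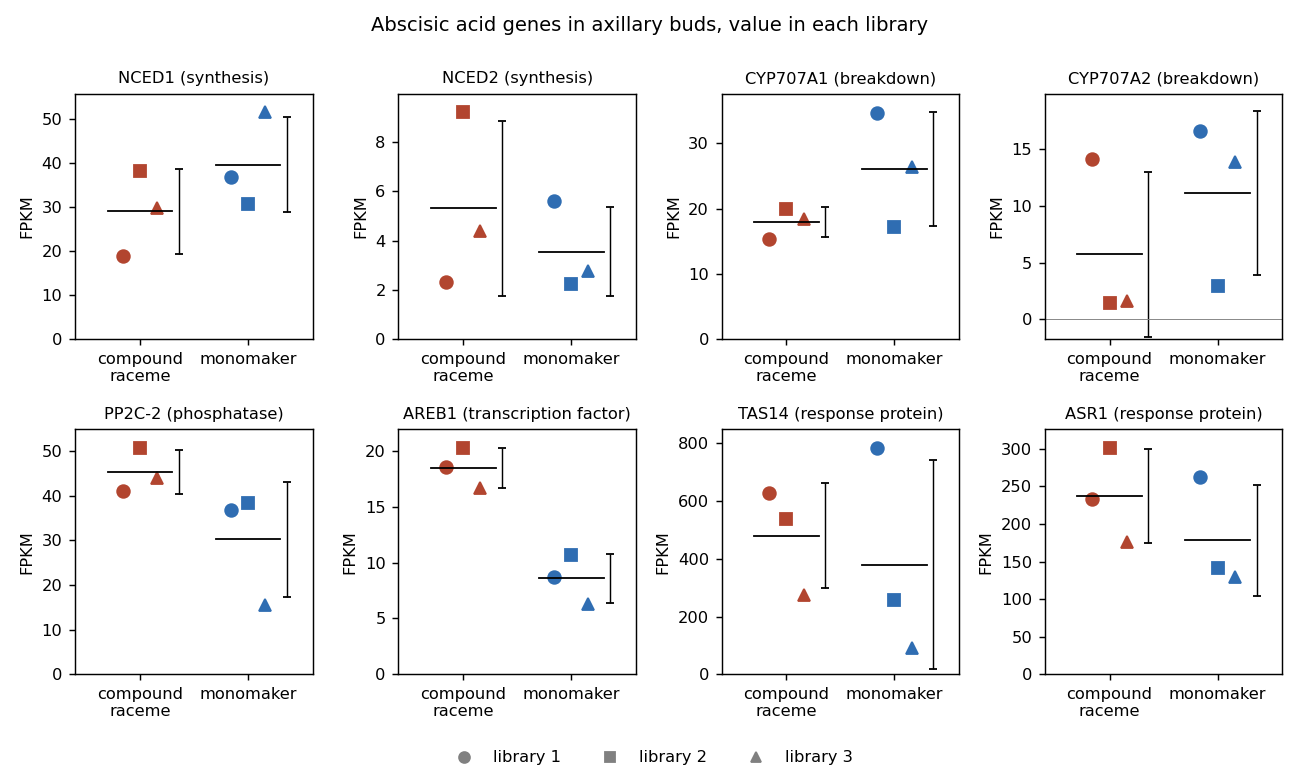
FPKM of the 8 genes in each library, compound raceme left and monomaker right; symbols mark the library number, the horizontal line is the mean and the bar beside it the SD (n = 3). AREB1 lies between 16.6 and 20.2 FPKM in compound raceme buds and between 6.33 and 10.7 FPKM in monomaker, while the values of TAS14 and CYP707A2 spread widely within both cultivars.

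ABF4 (Solyc11g044560), a related bZIP factor of the pathway, had values closer together. It had 31.4, 31.5 and 28.6 FPKM in compound raceme buds and 32.9, 23.9 and 23.2 FPKM in monomaker, with a log2 fold change of 0.20 (95% interval -0.20 to 0.61, limma adjusted p = 0.472). Within a library, which removes any scaling of the library as a whole, AREB1 stood at 0.590, 0.644 and 0.582 times the level of ABF4 in compound raceme libraries 1 to 3 and at 0.264, 0.449 and 0.273 times in monomaker libraries 1 to 3. The ranges of this ratio in the cultivars did not overlap; the difference between the folds of the 2 genes was not tested. ABI3 (Solyc06g083590), a factor known in Arabidopsis for its role in seeds, was too low for the test, at 0.730 ± 0.348 FPKM in buds of compound raceme and 0.897 ± 0.140 FPKM in monomaker.

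The phosphatases that hold the pathway off had higher mean values in compound raceme, and none of the 3 passed the test in limma. Among them 1, PP2C-1, had an unadjusted limma p below 0.05, against 25.7% of all tested loci. PP2C-2 had 41.1, 50.7 and 44.0 FPKM in compound raceme, against 36.9, 38.3 and 15.4 FPKM in monomaker. All 3 compound raceme values lay above the monomaker values, but compound raceme 1 and monomaker 2 were close, and monomaker 3 was far below the other two. The log2 fold change was 0.67 (SE 0.34, 95% interval -0.14 to 1.48, limma adjusted p = 0.264), and it was 0.26 without monomaker 3. AREB1 and PP2C-2 were the 2 members whose cultivars did not overlap, a pattern that 31.7% of tested loci show, 16.4% with compound raceme higher and 15.3% with it lower.

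Its relative PP2C-1 (Solyc03g121880) had values that spanned 1.04-fold in compound raceme and 1.14-fold in monomaker, the narrowest spans of the genes tested. It had 89.6, 86.3 and 89.4 FPKM in compound raceme buds and 61.0, 60.9 and 53.4 FPKM in monomaker. The cultivars were well apart, with a log2 fold change of 0.59 (SE 0.13, 95% interval 0.28 to 0.90), but the limma adjusted p was 0.0624. It fell below the threshold without monomaker 1 (adjusted p = 0.0477), where 10.9% of all loci were called, and with quantile normalization (adjusted p = 0.0406), and lay between 0.109 and 0.233 without each of the other 5 libraries. Both of its deposited rows were higher in compound raceme, and in the authors' deposited table their q-values are 0.0117 and 0.0022. ABI2 (Solyc07g040990), another phosphatase, had 26.6 ± 1.76 FPKM in compound raceme buds and 23.9 ± 3.88 FPKM in monomaker (log2 fold change 0.15, limma adjusted p = 0.554). Its 2 deposited rows differed in direction, the main one with 25.7 ± 1.58 FPKM in compound raceme buds and 21.7 ± 4.25 FPKM in monomaker and the minor one with 0.857 ± 0.903 FPKM in compound raceme buds and 2.27 ± 1.86 FPKM in monomaker. The receptor PYL9 (Solyc09g015380) was low, at 1.26 ± 0.461 FPKM in compound raceme buds and 1.17 ± 0.265 FPKM in monomaker, with a 95% interval of the log2 fold change of -0.52 to 0.62.

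The response protein genes TAS14, ASR1, Asr4 and DHN had the highest mean levels of the genes followed. None of these 4 passed the test in limma, and DHN had an unadjusted limma p below 0.05, as did 25.7% of all tested loci. TAS14, a dehydrin induced by the hormone and by salt stress in tomato, had 627, 538 and 275 FPKM in compound raceme, against 784, 259 and 92.1 FPKM in monomaker. Monomaker 1 was the highest of all 6 libraries and monomaker 3 the lowest, so the monomaker range enclosed the compound raceme range. The values of the monomaker libraries spanned 8.51-fold and those of the compound raceme libraries 2.28-fold. Its log2 fold change of 0.77 had a 95% interval from -1.01 to 2.55 (limma adjusted p = 0.544). It was 0.01 without monomaker 3 and 1.55 without monomaker 1.

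ASR1, a small protein named for its response to abscisic acid, stress and ripening, had 234, 301 and 176 FPKM in compound raceme, against 263, 142 and 129 FPKM in monomaker. Monomaker 1 lay among the compound raceme values of ASR1, above 2 of them. ASR1 had a log2 fold change of 0.45 (95% interval -0.33 to 1.23, limma adjusted p = 0.414), which was 0.26 without compound raceme 2 or monomaker 3 and 0.77 without monomaker 1. Its neighbour in the gene cluster, Asr4 (Solyc04g071620), had 247 ± 51.9 FPKM in compound raceme buds and 241 ± 47.6 FPKM in monomaker (log2 fold change 0.04, limma adjusted p = 0.933). ASR3 (Solyc04g071590) was barely present, listed at 0, 0.15 and 0.44 FPKM in the compound raceme libraries and at 0.15, 0 and 0 FPKM in the monomaker libraries. The ASR genes are closely related, and reads may have been split among them, so their single values are uncertain.

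DHN (Solyc04g082200), a dehydrin by its RefSeq symbol, had 146, 251 and 736 FPKM in compound raceme, against 110, 106 and 135 FPKM in monomaker. The cultivars did not overlap, as at 31.7% of all tested loci, but compound raceme 3 stood far above compound raceme 1. The log2 fold change of 1.36 (SE 0.55, 95% interval 0.06 to 2.66) had a limma adjusted p of 0.179. Without compound raceme 3 the fold was 0.72. In the authors' deposited table its log2 ratio is 1.49 with a q-value of 0.0302. TAS14 and DHN, both dehydrins by name, were thus highest in different libraries, TAS14 in monomaker 1 and DHN in compound raceme 3.

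**Figure D2:**
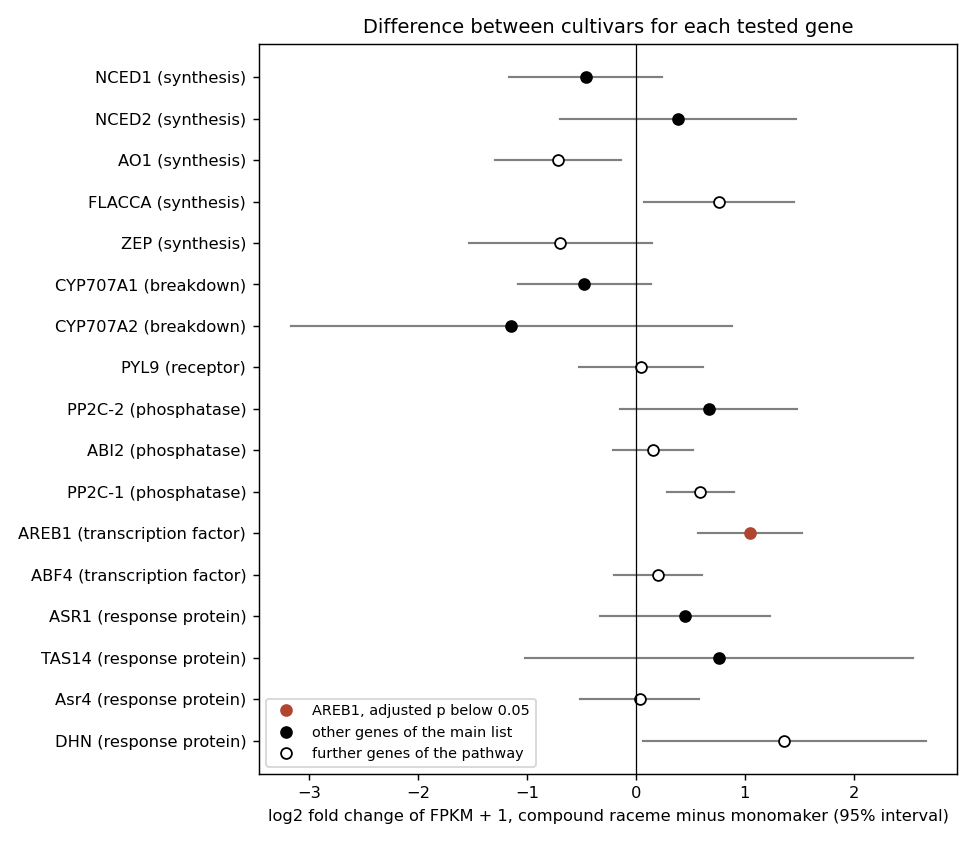
Log2 fold change of each tested gene, compound raceme minus monomaker, with its 95% interval from limma. Only AREB1, at 1.05, has an adjusted p below 0.05; TAS14 and CYP707A2 have the widest intervals.

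Of the 5 synthesis genes tested, none passed in limma in either direction. An unadjusted limma p below 0.05 was found for 2, AO1 and FLACCA, against 25.7% of all tested loci. NCED1, the main NCED gene of tomato leaves and fruit and the site of the notabilis mutation, had 18.9, 38.2 and 29.7 FPKM in compound raceme, against 36.7, 30.7 and 51.5 FPKM in monomaker. Compound raceme 1 was the lowest library and monomaker 3 the highest, with the other libraries intermixed. For NCED1 the log2 fold change was -0.46 (95% interval -1.16 to 0.24, limma adjusted p = 0.359), and it was -0.19 without compound raceme 1 and -0.26 without monomaker 3. NCED2 was lower in level, at 2.31, 9.22 and 4.39 FPKM in compound raceme buds and 5.62, 2.25 and 2.78 FPKM in monomaker. Its log2 fold change of 0.39 (95% interval -0.69 to 1.47, limma adjusted p = 0.620) rested on compound raceme 2, and it was -0.037 without that library and 0.78 without compound raceme 1.

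The earlier and later steps of synthesis had values on both sides. ZEP (Solyc02g090890) had 51.8, 25.1 and 31.8 FPKM in compound raceme buds and 42.0, 48.8 and 88.0 FPKM in monomaker, with a log2 fold change of -0.69 (limma adjusted p = 0.266), which was -0.38 without monomaker 3. AO1 (Solyc11g071620), an aldehyde oxidase gene that lies beside near relatives, had 6.54, 6.09 and 3.77 FPKM in compound raceme buds and 7.61, 9.0 and 12.1 FPKM in monomaker. Its cultivars did not overlap, as at 31.7% of all tested loci, and the log2 fold change was -0.71 (95% interval -1.30 to -0.13, limma adjusted p = 0.137). AO1 was placed with synthesis as an aldehyde oxidase gene, and whether it makes the hormone was not tested. The aldehyde oxidase gene sitiens was planned but left out. FLACCA (Solyc07g066480) had 8.14, 11.1 and 8.81 FPKM in compound raceme buds and 8.14, 4.57 and 3.35 FPKM in monomaker, so that the lowest compound raceme value equalled the highest monomaker value. Its log2 fold change was 0.76 (95% interval 0.08 to 1.45, limma adjusted p = 0.162), and without monomaker 1 it was 1.06 with an adjusted p of 0.0317, in a fit that called 10.9% of all loci. Without each of the other 5 libraries its adjusted p was between 0.205 and 0.408, with a fold down to 0.52. Its row with coordinates has a q-value of 0.037 in the authors' deposited table.

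The breakdown genes had lower mean values in compound raceme, and neither passed the limma test or had an unadjusted p below 0.05. CYP707A1 had 15.4, 19.9 and 18.4 FPKM in compound raceme, against 34.6, 17.2 and 26.4 FPKM in monomaker. The compound raceme libraries were close to each other, and monomaker 2 lay among them. CYP707A1 had a log2 fold change of -0.47 (95% interval -1.08 to 0.14, limma adjusted p = 0.288), which was -0.25 without monomaker 1 and -0.73 without monomaker 2. CYP707A2 had 14.1, 1.42 and 1.6 FPKM in compound raceme, against 16.6, 2.91 and 13.9 FPKM in monomaker. Both cultivars held high and low libraries, spanning 9.94-fold in compound raceme and 5.69-fold in monomaker, and the 95% interval of its log2 fold change of -1.14 ran from -3.17 to 0.89 (limma adjusted p = 0.427). Leaving out 1 library moved this fold between -2.0, without compound raceme 1, and -0.68, without compound raceme 2.

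For the balance of the 2 steps only the members were used, and other NCED and CYP707A genes were not counted. The balance was described as the summed FPKM of NCED1 and NCED2 over that of CYP707A1 and CYP707A2 in the same library. It was 0.720, 2.22 and 1.71 in compound raceme libraries 1 to 3 and 0.826, 1.63 and 1.35 in monomaker libraries 1 to 3. The ranges overlapped, and in each cultivar library 1 had the lowest ratio and library 2 the highest. The level of CYP707A2 relative to CYP707A1 ran between 0.0713 and 0.917 in compound raceme and between 0.169 and 0.526 in monomaker.

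The order of levels was similar in the cultivars at the top and differed in the middle. In compound raceme the mean FPKM ran TAS14 (480 ± 183), ASR1 (237 ± 62.7), PP2C-2 (45.3 ± 4.95), NCED1 (29.0 ± 9.67), AREB1 (18.5 ± 1.80), CYP707A1 (17.9 ± 2.30), CYP707A2 (5.71 ± 7.28) and NCED2 (5.31 ± 3.55). In monomaker it ran TAS14 (378 ± 361), ASR1 (178 ± 73.8), NCED1 (39.6 ± 10.7), PP2C-2 (30.2 ± 12.8), CYP707A1 (26.1 ± 8.71), CYP707A2 (11.1 ± 7.23), AREB1 (8.58 ± 2.19) and NCED2 (3.55 ± 1.81). In compound raceme the ranges of TAS14 and ASR1 overlapped, as did those of NCED1 and AREB1, AREB1 and CYP707A1, and CYP707A2 and NCED2, and the other neighbours in that order did not overlap. In monomaker the ranges of TAS14 and ASR1, of NCED1, PP2C-2 and CYP707A1, and of CYP707A2 and AREB1 overlapped, and the other neighbours did not. AREB1 ranked above 72.2% of all loci in compound raceme and above 54.3% in monomaker.

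Taken as a list, 1 of the 8 members rose, against 0.750% of all tested loci, and none fell in limma, against 2.52%. An unadjusted p below 0.05 was present in 1 of the 8, against 25.7% of all tested loci. A fold above 0 was present in 5 of the 8, against 53.9% of all tested loci, and the median log2 fold change was 0.42, against 0.04 over all tested loci. Without monomaker 1, whose photosynthesis level lay near that of compound raceme, AREB1 was again the only member called, against 10.9% of all loci, and 3 of the 8 members had an unadjusted p below 0.05, close to the 31.9% of all loci in that fit. Of 12 further genes of the pathway with a RefSeq name, 11 had a row in the table used here and 9 were tested. Planned genes without such a name were left out, among them all SnRK2 kinases and other NCED, CYP707A and PYL genes. The counts therefore do not cover the whole pathway. None of the 9 passed in limma, 4 had an unadjusted p below 0.05, 7 had a fold above 0 and the median log2 fold change was 0.15. Of the 9 rows of the members, 1 has a q-value below 0.05 in the authors' deposited table, against 10.2% of all rows (3.54% with compound raceme higher), as do 5 of the 17 rows of the further genes, all 5 with a log2 ratio above 0. One of these 5 is a ZEP row listed at 0 in all monomaker libraries and at 0.48, 0.30 and 0.17 FPKM in compound raceme, and the main ZEP row has a q-value of 0.219 there.

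**Figure D3:**
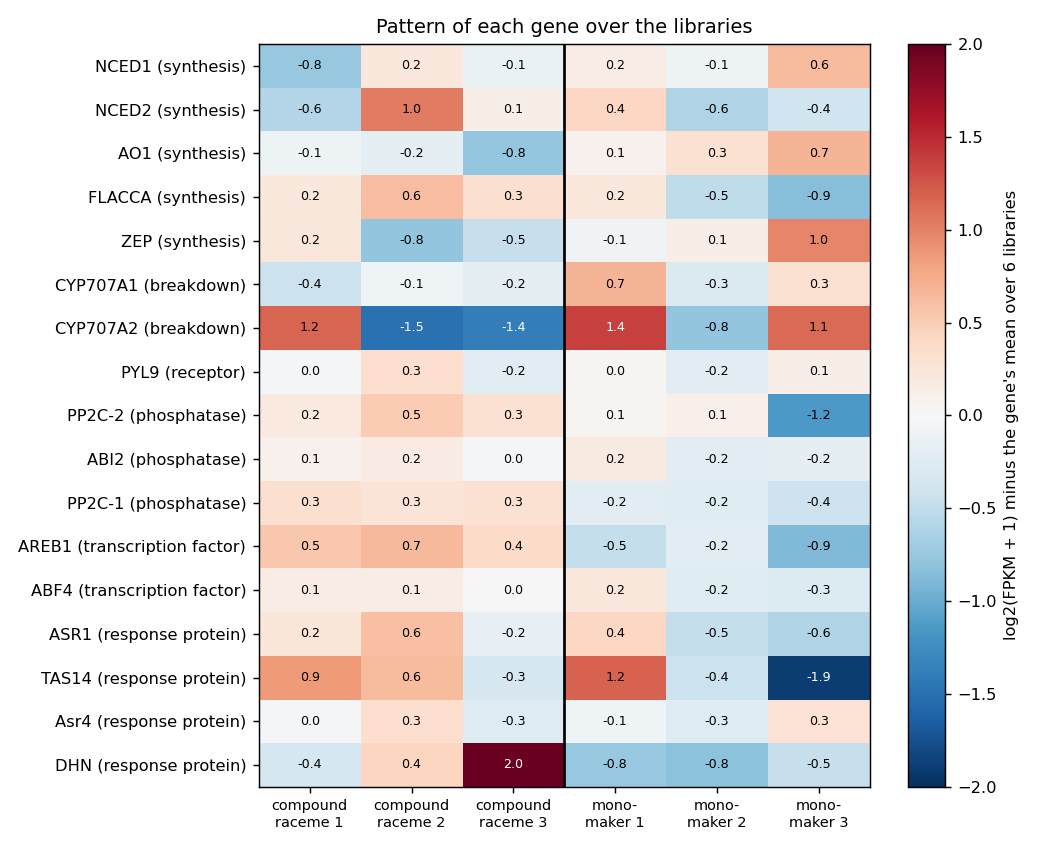
Level of each tested gene in each library as log2(FPKM + 1) minus the mean of that gene over the 6 libraries, compound raceme left of the line and monomaker right of it. AREB1 and PP2C-1 are above their mean in every compound raceme library and below it in every monomaker library, and TAS14 and PP2C-2 reach their lowest values in monomaker 3.

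The libraries of a cultivar differed in which genes stood out. Monomaker 3 held the lowest value of 4 members, namely AREB1, PP2C-2, TAS14 and ASR1, and the highest value of NCED1. Compound raceme 2 held the highest value of 4 members, namely AREB1, PP2C-2, ASR1 and NCED2. Monomaker 1 held the highest value of the other 3, TAS14, CYP707A1 and CYP707A2. The genes whose pattern over the 6 libraries was most like that of AREB1, among 16 other genes of the pathway, were PP2C-1, FLACCA and PP2C-2. Their log2(FPKM + 1), centred on each gene's mean, differed from that of AREB1 by 0.237, 0.240 and 0.280 on average, against 1.5 for CYP707A2, the least alike. This measure depends on how widely a gene spreads as well as on its pattern. In monomaker 1 the centred values of FLACCA and PP2C-2 were 0.21 and 0.05, and that of AREB1 was -0.48. All of these values share the same 6 libraries and the same difference between cultivars.

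AREB1 and CYP707A1 are near neighbours on chromosome 4, with 5 loci between them in the table, all of them tested. The log2 fold change was 1.05 for AREB1 and -0.47 for CYP707A1, which did not pass the test. Of the 20 tested loci within 10 places of AREB1, none rose and 2 fell in limma, against 0.750% and 2.52% of all tested loci. The log2 fold changes of the 20 ran from -1.26 to 0.71, with a median of -0.26. The cultivars did not overlap at 40.0% of these 20 loci, against 31.7% of all tested loci. Of the 20 around CYP707A1, 1 rose, which was AREB1 itself, and 1 fell. Around the other 6 members the same count was 0 or 1 in each direction, and the share of loci without overlap ran from 15.0% around NCED2 to 45.0% around CYP707A2.

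**Figure D4:**
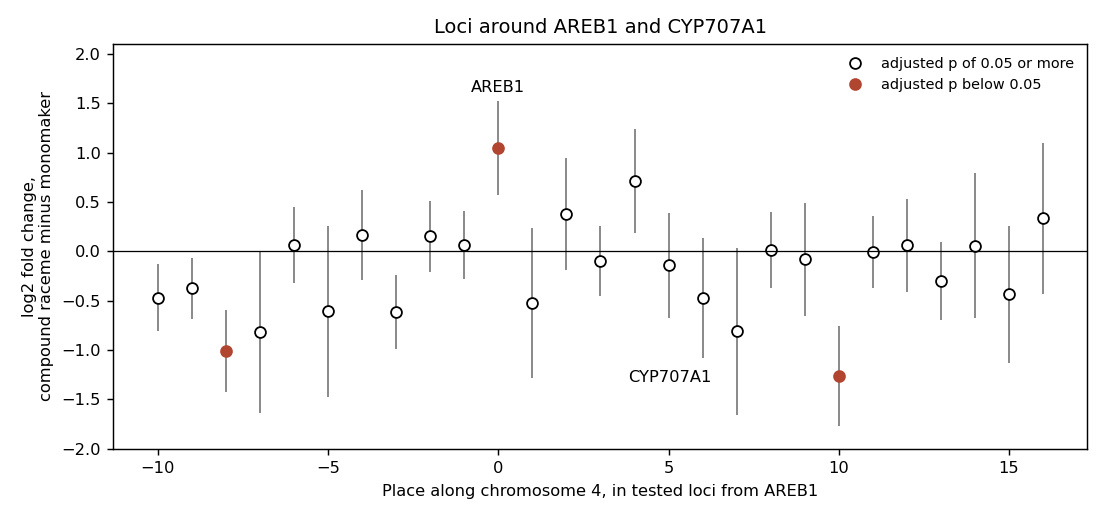
Log2 fold change, compound raceme minus monomaker, with its 95% interval from limma for tested loci around AREB1 and CYP707A1, in gene order along chromosome 4. AREB1 at 1.05 is the only locus called higher there, and its 10 nearest tested loci on either side run from -1.26 to 0.71.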

How the data were processed

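RNA was extracted with Trizol and sequenced from BGI500 libraries, per the labels' protocols. Per the submitters' processing notes, the tools were DESeq2 1.4.5, RSEM 1.2.12, Bowtie2 2.2.5 and HISAT2 2.0.4, with no roles given. The authors deposited FPKM values for 6 libraries in 31139 rows, with their own log2 ratio, p-value and q-value for each row, per the file headers. Chromosome names are those of SL3.0. Scaling between libraries, annotation release and strand setting are not given in the sources used here, so antisense reads cannot be told apart.

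The rows of a locus were summed, since 5699 of 25440 loci have 2. Loci whose mean reached 1 FPKM were tested as log2(FPKM + 1) in limma 3.58.1 (R 4.3.3, intensity trend, Benjamini-Hochberg adjustment), with the cultivar as the only term. The median error of the fold changes was checked on simulated data. Those values were independent, without differences shared by the loci of a library, so the check does not bear on the calls. The genes and lists were chosen with earlier results of these data known. All 8 members are named, as are further genes whose RefSeq symbol (assembly SLM_r2.1) lies on the same chromosome within 0.07 of the gene order; all 20 names passed, at a tolerance set after the differences (at most 0.063) were seen, and close neighbours cannot be told apart. Pairs of symbol and locus identifier were recalled from published assignments, and named further genes are those with a row. Depth is unknown without counts. The commonest log2 ratio of low values between compound raceme 1 and the other libraries was -0.05 to 0. FPKM is normalized to library size, so unchanged loci can give such ratios at any depth, and relative depth stays unknown.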

Additional observations from a re-analysis of the deposited data

How the results depend on the processing

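With 3 libraries a cultivar and no counts, changes of low genes are imprecise. Over 16 alternatives, AREB1 kept its direction in all and its limma call in 7, with adjusted p of 0.0421 to 0.191. Leaving out libraries could not change that direction, since its values do not overlap between the cultivars. Leaving out 1 library gave 6 to 2041 called loci, against 614, and 0 to 1 called members. The 0 came without any library but monomaker 1. There 1 or 2 members had an unadjusted limma p below 0.05, against 15.1% to 24% of all loci. A filter at 5 FPKM gave 389 called loci, and leaving out both libraries numbered 1 gave 1921. Called members were 0 without a filter (AREB1 limma adjusted p = 0.0709), without both libraries numbered 1 (adjusted p = 0.0777) and with the replicate block. In these fits 1 or 2 members had an unadjusted limma p below 0.05, against 21.6%, 31.5% and 24.9% of all loci in turn. The replicate number as a block gave 0 called loci and 0 called members in limma, with 4676 loci at an unadjusted p below 0.05. Deviations of same-numbered libraries correlated at 0.03, 0.06 and 0.10. Monomaker 1 and compound raceme 2 correlated at 0.10 as well, so not every library correlated best with its own number. With 3 libraries a cultivar, such correlations cannot decide whether the numbers pair libraries, which the labels do not state. With 1 library left out, the log2 fold ran from -0.037 to 0.78 for NCED2, from -0.11 to 0.18 for PYL9 and from -0.12 to 0.19 for Asr4, each below 0 without compound raceme 2 and the last 2 also without monomaker 2 (-0.055 and -0.083); the cause was not tested. In the rows as deposited, the more abundant AREB1 row had a limma adjusted p of 0.138, and this alternative was counted as a lost call. The other AREB1 row, of nearly the same level, passed (limma adjusted p = 0.0303). The less abundant ABI2 row had a log2 fold of -0.75, against 0.15 for the sum. The other genes named kept their direction in every alternative run, loci with 2 rows being taken by their more abundant row in the rows as deposited; a count test was not run.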
